A study of Drosophila melanogaster with 8 samples.

Results

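The 8 arrays of adult Drosophila heads in this series were split by the level of Yp1, a yolk protein gene, and every other transcript on the arrays was read against that split. The 5 arrays with Yp1 above 8 log2 units are called yolk-high here, and the 3 arrays below 8 log2 units are called yolk-low. All 8 arrays of the series entered the comparison. The yolk-high arrays were pulsed replicates 1 and 2 and unpulsed replicates 2, 3 and 4. The yolk-low arrays were pulsed replicates 3 and 4 and unpulsed replicate 1. The lowest Yp1 value above the threshold was 11.34 on unpulsed 4, and the highest value below it was 5.21 on pulsed 4, so no array lay near 8. Because the classes were chosen by the measured Yp1 values, differences over this split are given as descriptions with no test.

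All flies were Canton-S, a wild-type laboratory strain, kept at 25 °C on sugar medium and 3 to 5 days old. They had spent 4 days with 12 h of light and 12 h of darkness per day. Pulsed flies (4 arrays) received saturating light for 30 min at ZT 15, where ZT is the time in hours since lights on, after 3 h of darkness. They were frozen 1 h after the pulse, at ZT 16.5, and unpulsed flies (4 arrays) were controls without a pulse. Whole heads were used, so brain, eyes, antennae, muscle, cuticle and the fat body around the brain were measured together. The labels give neither the sex of the flies nor how many heads went into a sample, and they do not say that replicates came from separate groups of flies. The spread between replicates may therefore be partly technical.

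Yolk proteins are the main nutrient store of the fly egg. The fat body of adult females, an organ that does the work of vertebrate liver and adipose tissue, and the follicle cells of the ovary make them, and the oocyte takes them up through the receptor Yolkless. Yp1, Yp2 and Yp3 are textbook targets of doublesex, the transcription factor at the end of the sex determination cascade: its female form activates them in the fat body and its male form represses them. Fat body also lies in the head, where a small group of transcripts, among them fit, Cyp4d21 (also called sxe1) and Obp99b (also called tsx), is known to differ between females and males.

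Array medians over the 18769 probe sets compared lay between 2.95 and 3.07 log2 units. Across probe sets, which are not independent replicates, 7 of the arrays correlated with each other at r between 0.995 and 0.998. Pulsed 2 stood apart from them at r between 0.985 and 0.988, and it alone held high levels of many male reproductive tract and gut transcripts, described further on. Differences between class means are therefore given with and without pulsed 2, while class means, SDs and ranges are over all 5 yolk-high arrays unless stated. The split also crossed the treatment unevenly: 2 of 5 yolk-high arrays were pulsed, against 2 of 3 yolk-low arrays. Among replicates 3 and 4 both unpulsed arrays were yolk-high and both pulsed arrays were yolk-low, so yolk class and light pulse cannot be told apart within those numbers. The rhodopsin and phototransduction transcripts that define head tissue had list medians between 11.4 and 11.7 on every array. The mean 3′ minus 5′ difference of the control probe sets, a measure of RNA quality, was 1.63 to 2.01 log2 units on yolk-high arrays and 1.64 to 1.79 on yolk-low arrays.

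Yp1, on chromosome X, read 11.45 on pulsed 1, 12.53 on pulsed 2, 12.68 on unpulsed 2, 12.05 on unpulsed 3 and 11.34 on unpulsed 4 among yolk-high arrays, against 5.15 on pulsed 3, 5.21 on pulsed 4 and 4.82 on unpulsed 1 among yolk-low arrays. The classes averaged 12.01 ± 0.61 (SD, n = 5) and 5.06 ± 0.21 (SD, n = 3), a difference of 6.95 log2 units or 124-fold, and of 6.82 without pulsed 2. These values made the split and are no finding in themselves. In whole heads, fewer cells of a type and less RNA per cell cannot be told apart, here or in any comparison that follows.

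Yp2 lies next to Yp1 on chromosome X, with 0 genes between them in the RefSeq annotation (Release 6). It read 10.26 on pulsed 1, 11.50 on pulsed 2, 11.35 on unpulsed 2, 10.54 on unpulsed 3 and 9.98 on unpulsed 4, against 4.14 on pulsed 3, 4.37 on pulsed 4 and 4.13 on unpulsed 1. The 2 classes did not overlap, and the smallest yolk-high value was more than 5 log2 units above the largest yolk-low value. The class means were 10.73 ± 0.67 (SD, n = 5) and 4.22 ± 0.14 (SD, n = 3), which differ by 6.51 log2 units, or 91.3-fold. Without pulsed 2 the difference was 6.32, or 79.9-fold.

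Yp3 lies elsewhere on chromosome X, with 442 annotated genes between it and Yp1. It read 9.49 on pulsed 1, 11.27 on pulsed 2, 11.73 on unpulsed 2, 10.59 on unpulsed 3 and 10.10 on unpulsed 4 among yolk-high arrays. Yolk-low arrays read 6.71 on pulsed 3, 6.47 on pulsed 4 and 6.43 on unpulsed 1. The classes again did not overlap, but the step was smaller: 10.64 ± 0.89 (SD, n = 5) against 6.54 ± 0.15 (SD, n = 3), a difference of 4.10 log2 units or 17.1-fold, and 3.94 or 15.4-fold without pulsed 2.

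Obp99a was the other gene that differed by at least 2-fold along with the yolk genes. It encodes an odorant-binding protein, one of a family of small secreted proteins that carry hydrophobic molecules, and lies on chromosome 3R. Obp99a read 5.93 on pulsed 1, 8.92 on pulsed 2, 7.39 on unpulsed 2, 7.64 on unpulsed 3 and 6.80 on unpulsed 4, against 4.64 on pulsed 3, 4.59 on pulsed 4 and 4.38 on unpulsed 1. The yolk-low arrays lay within 0.26 log2 units of each other, while the yolk-high arrays spread over 2.99, and over 1.72 without pulsed 2. The means were 7.34 ± 1.10 (SD, n = 5) and 4.53 ± 0.14 (SD, n = 3), a difference of 2.80 log2 units or 6.97-fold, and 2.41 or 5.30-fold without pulsed 2.

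**Figure D1:**
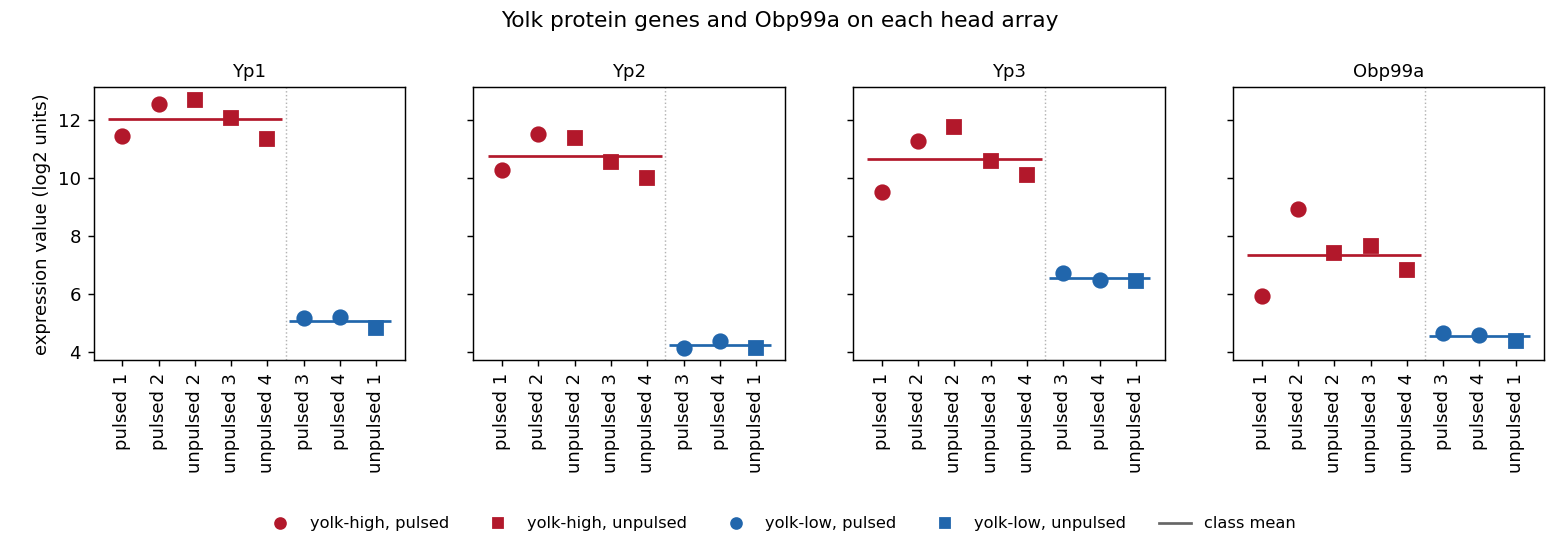
Log2 value of Yp1, Yp2, Yp3 and Obp99a (vertical axis) on each of the 8 arrays, yolk-high arrays in red on the left and yolk-low arrays in blue on the right. Each point is 1 array and lines are class means. For all 4 genes the 5 yolk-high arrays lie above the 3 yolk-low arrays, with gaps that are widest for Yp1 and Yp2 and narrowest for Obp99a.

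These 4 genes were the whole of the 2-fold split. Of 18769 probe sets, 4 (0.0213%) had every yolk-high array above every yolk-low array with means at least 1 log2 unit apart, and they were the single probe sets of Yp1, Yp2, Yp3 and Obp99a. In the opposite direction there were 0 (0%). Counted over 11982 named genes, the 4 are 0.0334%. Without pulsed 2 the counts were again 4 (0.0213%) and 0 (0%), with the same 4 genes. Over the 7 arrays other than pulsed 2, the SD of Yp1 was the highest of all probe sets, that of Yp2 ranked 2, that of Yp3 ranked 4 and that of Obp99a ranked 11, where the median SD of a probe set was 0.0685 log2 units. Over all 8 arrays the SD ranked 2 for Yp1, 3 for Yp2, 19 for Yp3 and 56 for Obp99a. The rank of Yp1 comes from the values that made the split. Probe sets with no gene name, or with several, contributed 0 to these counts.

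The yolk-high arrays did not hold the 4 transcripts at one level. Unpulsed 2 and pulsed 2 held the 2 highest values of each yolk gene, and unpulsed 3 ranked 3 for all of them. Pulsed 1 and unpulsed 4 held the 2 lowest values of all 4 genes. Obp99a kept this order except at the top, where pulsed 2 ranked 1, unpulsed 3 ranked 2 and unpulsed 2 ranked 3. On yolk-low arrays Yp1 spanned 0.39 log2 units, Yp2 spanned 0.24 and Yp3 spanned 0.28, all smaller than their spans on yolk-high arrays of 1.34, 1.52 and 2.24.

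The split was then read within each treatment. The arms share no array, but each is a part of the full split. Among pulsed arrays without pulsed 2, that is pulsed 1 against pulsed 3 and 4, the yolk-high array was higher by 6.27 log2 units for Yp1, 6.01 for Yp2, 2.90 for Yp3 and 1.31 for Obp99a. Among unpulsed arrays, replicates 2, 3 and 4 against replicate 1, the differences were 7.21, 6.50, 4.37 and 2.90 for the same genes in the same order. Both arms have 1 array on a side and so no spread on that side. In the pulsed arm 19 probe sets (0.101%) were higher by at least 2-fold without overlap and 9 (0.048%) were lower. In the unpulsed arm 6 (0.032%) were higher and 39 (0.208%) were lower. The arms shared 4 of the higher probe sets, which is 66.7% of the unpulsed arm's list and 21.1% of the pulsed arm's, and these were again Yp1, Yp2, Yp3 and Obp99a. For these 4 the lack of overlap in each arm was fixed by their lack of overlap over all arrays, and Yp1 made the split. Only the size of their differences was free to vary between the arms, so their return is no independent agreement. That no further probe set was shared was not fixed in this way. The arms shared 0 of the lower ones. With pulsed 2 kept, the pulsed arm had 18 (0.0959%) higher and 3 (0.016%) lower.

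**Figure D2:**
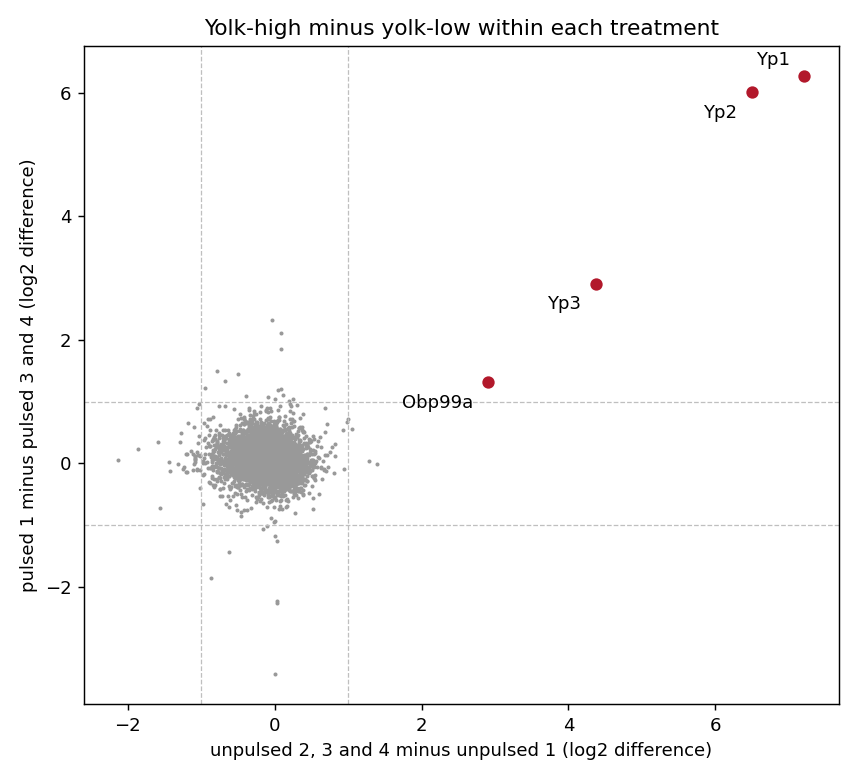
Log2 difference yolk-high minus yolk-low of each probe set within unpulsed arrays (horizontal axis) and within pulsed arrays without pulsed 2 (vertical axis), with dashed lines at a 2-fold difference. Each point is 1 probe set and the 4 named points are Yp1, Yp2, Yp3 and Obp99a. Only these 4 were higher by at least 2-fold without overlap in both arms, and all other points past 2-fold without overlap are so in 1 arm alone. The lack of overlap of the 4 in each arm follows from the full split, and only the size of their differences was free to vary.

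Other transcripts with a known sex difference in head fat body differed by less than 2-fold, and their classes overlapped over the 8 arrays. The female-biased gene fit, which encodes a secreted satiety factor, read 12.31 on pulsed 1, 12.44 on pulsed 2, 12.46 on unpulsed 2, 11.76 on unpulsed 3 and 12.13 on unpulsed 4, against 12.03 on pulsed 3, 12.09 on pulsed 4 and 11.75 on unpulsed 1. The classes overlapped, since unpulsed 3 lay below both yolk-low pulsed arrays, and their means differed by 0.26 log2 units (0.21 without pulsed 2). Within each treatment fit was higher on every yolk-high array, by 0.25 in the pulsed arm without pulsed 2 and by 0.36 in the unpulsed arm, where unpulsed 3 (11.76) was just above unpulsed 1 (11.75). Among the male-biased genes, Cyp4d21, a cytochrome P450, read 11.71 on pulsed 1, 11.51 on pulsed 2, 11.82 on unpulsed 2, 12.18 on unpulsed 3 and 11.99 on unpulsed 4, against 11.80 on pulsed 3, 11.79 on pulsed 4 and 11.79 on unpulsed 1. Its means differed by 0.05 (0.13 without pulsed 2), with yolk-low values inside the yolk-high range. Obp99b was high on every array, at 14.85 to 15.17 on yolk-high and 15.09 to 15.17 on yolk-low arrays, with a difference of -0.06 with and without pulsed 2. sxe2, a lipase-like gene with male-biased expression, also overlapped, with a difference of 0.06 (0.10). The male-biased gene takeout (to) has no probe set of its own symbol among those used here and was not analysed.

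Gene lists were read as counts of members whose classes did not overlap, at any size. Over all 11982 genes, 163 (1.36%) were higher and 73 (0.609%) were lower in this sense, and without pulsed 2, with fewer arrays to separate, 260 (2.17%) and 89 (0.743%). In lists of the sizes used here a count of 0 or 1 cannot be told apart from these shares and says nothing particular about a list. Of 9 sex determination genes measured, 0 separated. Sxl, the switch gene of the cascade, read 7.62 on pulsed 1, 7.43 on pulsed 2, 8.35 on unpulsed 2, 8.03 on unpulsed 3 and 7.86 on unpulsed 4, against 8.18 on pulsed 3, 8.33 on pulsed 4 and 8.24 on unpulsed 1. Its mean difference was -0.39 (-0.28 without pulsed 2), and unpulsed 2, a yolk-high array, held the highest value of all 8. The difference was -0.73 within pulsed arrays (-0.63 without pulsed 2), where the classes did not overlap, and -0.15 within unpulsed arrays, where they did. Sxl has 3 probe sets, and the other two gave -0.36 and -0.04 without pulsed 2. dsx (doublesex) differed by -0.22 (-0.13), tra, which directs its splicing, by 0.04 (0.00), and fru, the neural sex factor, by -0.09 (-0.06). Other probe sets of dsx and fru overlapped between the classes too. That of dsx, which was dim, differed by 0.02 (0.04), and the brightest other one of fru by 0.01 (0.02). Sxl, tra, dsx and fru are known to act through sex-specific splice forms, which 1 probe set value does not separate.

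Dosage compensation raises transcription of the male X chromosome through the MSL complex, and 0 of its 5 measured protein genes separated the classes, at the background share. msl-2, whose protein is known to be made in males, differed by 0.07 (0.13 without pulsed 2) and mof, the acetyltransferase of the complex, by -0.12 (-0.12). The roX RNAs of the complex were not analysed. Genes on X with a mean of at least 4 log2 units had a median difference of -0.01 log2 units (1108 genes), against 0.01 for those on chromosomes 2 and 3 (5621 genes). The classes did not overlap for 14 (1.26%) higher and 15 (1.35%) lower X-linked genes, and for 137 (2.44%) higher and 48 (0.854%) lower autosomal genes.

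Most transcripts of cuticular hydrocarbon pheromone synthesis and of the ovary were dim. Only 4 of 9 pheromone synthesis genes and 1 of 19 ovary and eggshell genes had a mean of at least 4 log2 units. Of the 9 pheromone synthesis genes 0 separated, beside 1.36% of all genes higher and 0.609% lower. eloF, an elongase of female pheromone synthesis, read 2.26 to 2.31 on yolk-high arrays and 2.28 to 2.30 on yolk-low arrays. Desat1, a desaturase of both sexes, differed by -0.11 (-0.07). Of the 19 ovary and eggshell genes 0 separated, beside the same shares, which says nothing particular about so dim a list. Its medians were 2.37 to 2.49 on yolk-high arrays and 2.35 to 2.42 on yolk-low arrays. yl, the gene of the yolk receptor of the oocyte, read 2.18 to 2.20 on yolk-high arrays and 2.17 to 2.22 on yolk-low arrays. These ovarian levels sat near the lowest values of the arrays on both sides of the split.

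**Figure D3:**
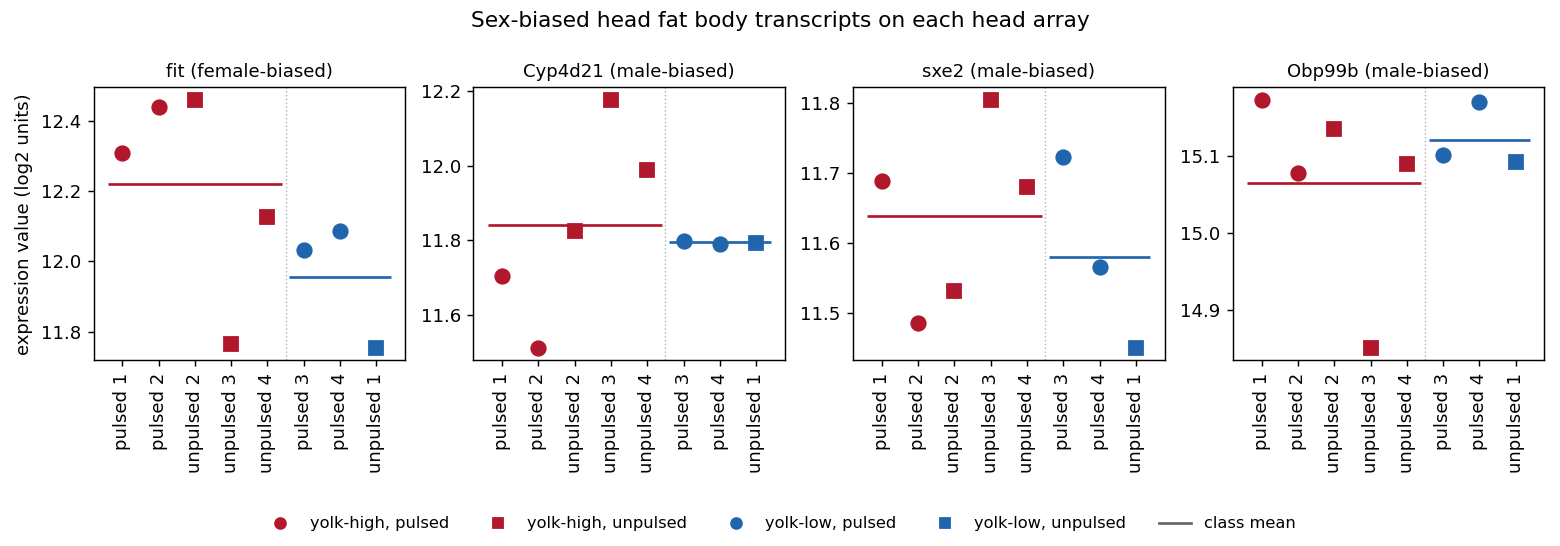
Log2 value of fit, Cyp4d21, sxe2 and Obp99b (vertical axis, with a scale of its own in each panel) on each array, yolk-high arrays in red on the left and yolk-low arrays in blue on the right. Each point is 1 array and lines are class means; the yolk-high and yolk-low points of all 4 genes overlap.

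Fat body transcripts had a median difference near 0. Of 15 fat body genes measured, 1 was higher without overlap and 0 were lower, beside 1.36% and 0.609% of all genes, and the median difference was -0.00 log2 units (0.01 without pulsed 2), where the median of all genes was 0.00 (0.01). The list median was 10.54 on pulsed 1, 10.45 on pulsed 2, 10.60 on unpulsed 2, 10.05 on unpulsed 3 and 10.57 on unpulsed 4, against 10.48 on pulsed 3, 10.51 on pulsed 4 and 10.40 on unpulsed 1. The lowest of these was a yolk-high array. The 1 that separated was Gnmt, glycine N-methyltransferase, which consumes S-adenosylmethionine. Gnmt read 12.84 to 12.94 on yolk-high arrays and 12.73 to 12.77 on yolk-low arrays, a difference of 0.13 (0.11 without pulsed 2).

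Abundant fat body products overlapped. Lsp2, a storage protein of the haemolymph, read 14.84 on pulsed 1, 14.69 on pulsed 2, 14.85 on unpulsed 2, 13.86 on unpulsed 3 and 14.95 on unpulsed 4, against 14.88 on pulsed 3, 14.84 on pulsed 4 and 14.80 on unpulsed 1. Its one low value was on unpulsed 3, a yolk-high array with middle ranks for the yolk genes. apolpp, the precursor of the main lipid carrier of the haemolymph, differed by -0.07 (-0.01). Lsd-2, a lipid droplet coat protein, differed by -0.21 (-0.25), with unpulsed 3 lowest at 10.70. bmm, the main triglyceride lipase, differed by -0.09 (-0.14). CCHa2, a nutrient-responsive peptide hormone of the fat body, differed by -0.05 (-0.04).

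Metabolic lists had medians close to that of all genes. Their counts of separated members, 0 or 1 a list, cannot be told apart from the background in lists this short (1.36% of all genes higher and 0.609% lower). Of 13 lipogenesis genes 0 separated the classes and the median difference was -0.04 (-0.02 without pulsed 2): FASN1, fatty acid synthase, differed by -0.19 (-0.14) and ACC, acetyl-CoA carboxylase, by -0.13 (-0.17). Of 15 genes of sugar digestion and sensing 0 separated, with a median of 0.05 (0.00). tobi, a sugar-responsive glucosidase-like gene of the fat body, read 12.83 on pulsed 1, 12.85 on pulsed 2, 12.84 on unpulsed 2, 10.63 on unpulsed 3 and 12.82 on unpulsed 4, against 12.89 on pulsed 3, 12.78 on pulsed 4 and 12.63 on unpulsed 1. All arrays but unpulsed 3 lay between 12.63 and 12.89 for tobi. Unpulsed 3 also had the largest mean 3′ minus 5′ difference of the 8 arrays, at 2.01. It was close to that of unpulsed 2, at 1.97, where tobi read 12.84. Any part of this difference in the low values of unpulsed 3 was not tested. sug, a sugar-responsive transcription factor, differed by 0.37 (0.49 without pulsed 2) over the split, but by 0.47 within pulsed arrays without pulsed 2 and by -0.13 within unpulsed arrays, and its classes overlapped.

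Of 10 glycogen and gluconeogenesis genes 0 separated, with a median of 0.01 (-0.02). Pepck1, the first committed enzyme of gluconeogenesis, differed by -0.18 (-0.15). Of 12 fasting and lipid mobilisation genes 1 was lower without overlap. It was Acsl, an acyl-CoA synthetase, at 9.12 to 9.41 on yolk-high arrays and 9.41 to 9.45 on yolk-low arrays, ranges that all but touch, with a difference of -0.11 (-0.06 without pulsed 2). foxo, a transcription factor active when insulin signalling is low, differed by -0.04 (0.09), and InR, the insulin receptor, by -0.01 (0.05). Of 17 amino acid and one-carbon genes 1 separated, and it was again Gnmt. The median of that list was 0.02 (0.03).

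**Figure D4:**
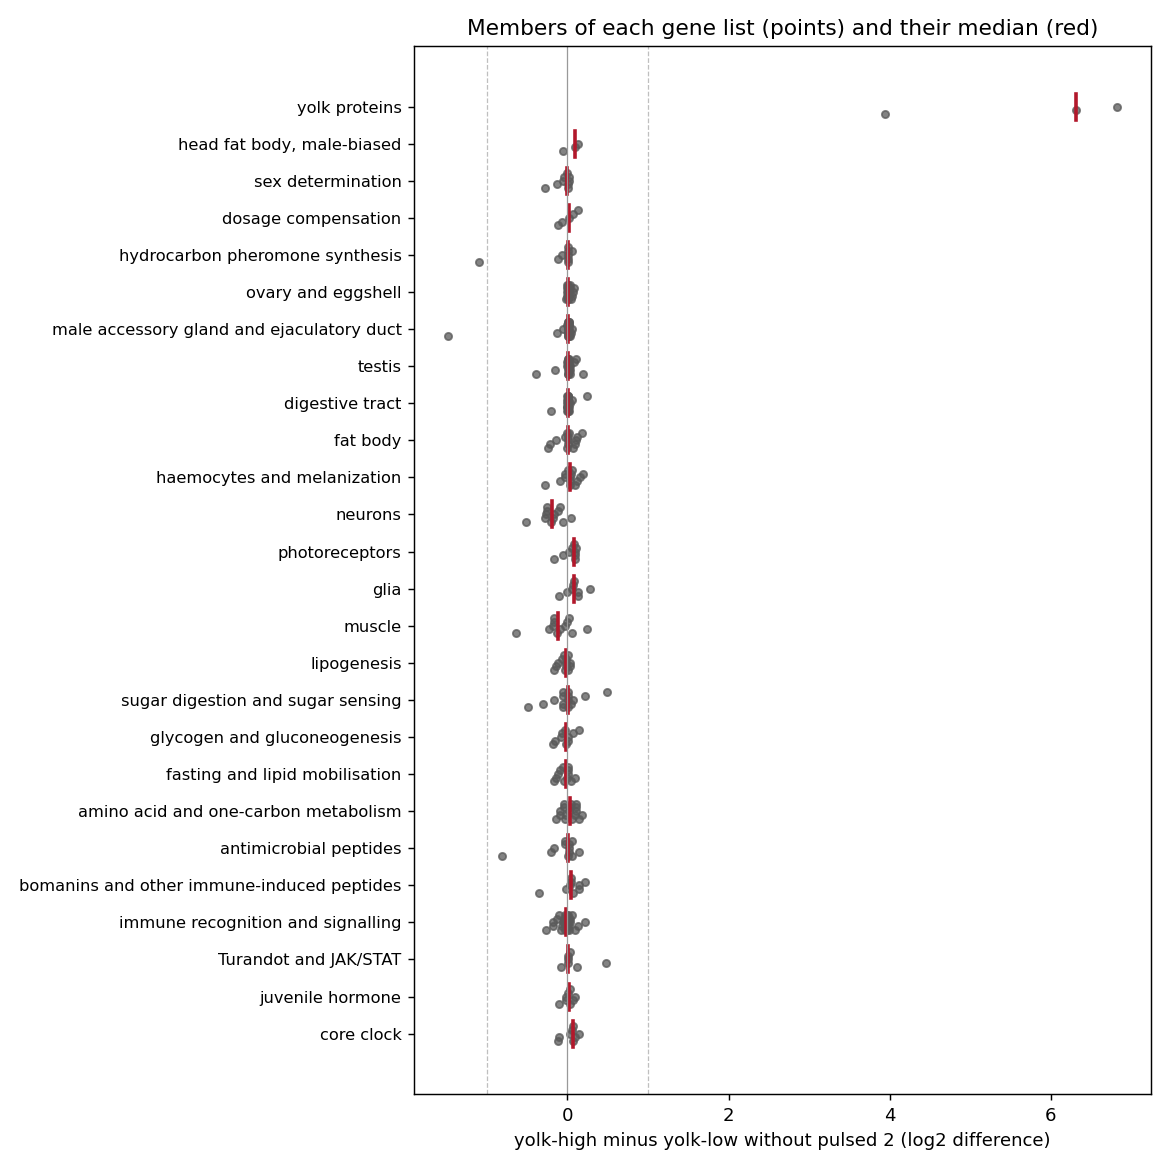
Log2 differences yolk-high minus yolk-low of the members of each gene list, without pulsed 2 (horizontal axis), with 1 row per list and 1 point per gene. Bars mark list medians. The yolk genes lie at 3.94 to 6.82, while the medians of the fat body, metabolic and immune lists lie between -0.02 and 0.05.

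Antimicrobial peptide transcripts ranged widely between arrays of one class. Of 12 antimicrobial peptide genes, 8 of them with a mean of at least 4 log2 units, 0 separated the classes, beside 1.36% of all genes higher and 0.609% lower, and the median difference was 0.05 (0.01 without pulsed 2). The list median was 8.16 on pulsed 1, 9.31 on pulsed 2, 8.89 on unpulsed 2, 7.10 on unpulsed 3 and 8.05 on unpulsed 4, against 8.41 on pulsed 3, 9.04 on pulsed 4 and 8.24 on unpulsed 1. The highest and the lowest array were both yolk-high. DptB, an Imd pathway target, read 12.77 on pulsed 1, 13.19 on pulsed 2, 13.16 on unpulsed 2, 10.45 on unpulsed 3 and 12.20 on unpulsed 4, against 11.86 on pulsed 3, 12.98 on pulsed 4 and 12.08 on unpulsed 1, a difference of 0.05 (-0.16). Unpulsed 3 was again the lowest array and the yolk-low arrays lay in the middle. edin, an infection-induced secreted peptide, differed by -0.43 (-0.82) with classes that overlapped, since it read 8.56 on pulsed 2 and 8.07 on unpulsed 2 against 8.19 on pulsed 4.

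Of 9 bomanins and other immune-induced peptides 1 was higher without overlap and 0 were lower. In lists of these sizes such counts, like the counts of 0 that follow, cannot be told apart from the background of 1.36% and 0.609%. The 1 higher gene was BomT2, a Toll-induced bomanin, at 12.95 to 13.27 on yolk-high arrays and 12.88 to 12.93 on yolk-low arrays. Its difference was 0.24 (0.22 without pulsed 2). Within pulsed arrays without pulsed 2 BomT2 differed by 0.06, and within unpulsed arrays by 0.25. Of 28 genes of immune recognition and signalling 0 separated, with differences without pulsed 2 between -0.27 and 0.22. Of 14 haemocyte and melanization genes 0 separated, and Hml, hemolectin of the haemocytes, differed by 0.07 (0.05). Of 7 Turandot and JAK/STAT genes 0 separated. TotC, a stress-induced peptide, read 10.89 on pulsed 1, 11.11 on pulsed 2, 10.03 on unpulsed 2, 11.54 on unpulsed 3 and 9.74 on unpulsed 4, against 9.93 on pulsed 3, 10.77 on pulsed 4 and 9.51 on unpulsed 1, so 1 yolk-high array lay below 2 of the yolk-low ones.

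Below 2-fold, a small share of transcripts separated the classes by small amounts. With 5 arrays against 3, an arbitrary split also leaves some probe sets without overlap. How many it leaves was not computed, so the counts that follow are no finding about the yolk split. With no minimum size, 193 probe sets (1.03%) were higher and 98 (0.522%) were lower without overlap, and 320 (1.7%) and 120 (0.639%) without pulsed 2. Over 6803 genes with a mean of at least 4 log2 units, 152 (2.23%) were higher and 63 (0.926%) were lower without overlap (212, or 3.12%, and 74, or 1.09%, without pulsed 2), with median differences of 0.18 (1.14-fold) and -0.23 log2 units. At 1.5-fold 6 were higher and 1 was lower. The largest difference below the 2-fold line was that of Trmt6, a subunit of a tRNA methyltransferase, at 0.70 (0.67 without pulsed 2). Trmt6 read 4.54 on pulsed 1, 4.77 on pulsed 2, 4.56 on unpulsed 2, 5.05 on unpulsed 3 and 4.47 on unpulsed 4, against 4.01 on pulsed 3, 3.60 on pulsed 4 and 4.35 on unpulsed 1. Sfp33A3, a seminal fluid protein gene, followed at 0.62, but its difference was 0.29 without pulsed 2, which read 6.40 where the other yolk-high arrays read 4.70 to 4.80. The 1 lower gene at 1.5-fold was myd, at -0.61 (-0.65), with -0.10 within pulsed arrays without pulsed 2 and -1.05 within unpulsed arrays, where 1 array was yolk-low. MtnD, a metallothionein, differed by 0.47 (0.40), with 0.93 within pulsed arrays without pulsed 2 and 0.07 within unpulsed arrays. These genes were chosen after their values were seen.

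Within the odorant-binding protein family Obp99a stood by itself at 2-fold. Of 47 Obp genes measured, 20 had a mean of at least 4 log2 units, 3 were higher without overlap, beside 1.36% of all genes and 2.23% of those with a mean of at least 4, and 1 passed 2-fold. The other two were Obp56a, at 0.50 (0.37 without pulsed 2), and Obp57b, at 0.25 (0.28). The neighbours of Obp99a on 3R did not follow it. Obp99c, 6 genes away, differed by 0.02 (0.01), Obp99b, 11 genes away, by -0.06 (-0.06), and Obp99d, 9 genes away, read 2.54 to 2.63 on both sides. Besides Obp99a, differences without pulsed 2 in Obp genes with a mean of at least 4 log2 units ran from -0.22 to 0.83, and their median with Obp99a included was 0.08.

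Transcripts of other head tissues were also set against the split. Of 12 neuronal genes 12 had a lower mean on yolk-high arrays (11 without pulsed 2). Of all genes with a mean of at least 4 log2 units, 47.6% had a lower mean (46.8% without pulsed 2). For the neuronal list the median difference was -0.26 (-0.19). The median was -0.01 within pulsed arrays without pulsed 2 and -0.46 within unpulsed arrays, where a single yolk-low array stood on the other side. nSyb, a synaptic vesicle protein, was the 1 that separated. Its ranges all but touched, at 9.701 on pulsed 1 and 9.704 on unpulsed 1. It read 9.70 on pulsed 1, 9.50 on pulsed 2, 9.43 on unpulsed 2, 9.43 on unpulsed 3 and 9.39 on unpulsed 4, against 9.84 on pulsed 3, 9.74 on pulsed 4 and 9.70 on unpulsed 1, a difference of -0.27 (-0.27), which was -0.09 within pulsed arrays without pulsed 2 and -0.28 within unpulsed arrays. Photoreceptor genes had a median of 0.04 (0.08), glial genes 0.07 (0.08) and muscle genes -0.08 (-0.11), and 0 members of these 3 lists separated the classes, at the background of 1.36% higher and 0.609% lower.

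Pulsed 2 held transcripts that the other yolk-high arrays lacked. The median of 23 male accessory gland and ejaculatory duct genes was 6.09 on pulsed 2, against 2.46 to 2.52 on the other yolk-high arrays and 2.45 to 2.48 on yolk-low arrays. Acp53Ea, a seminal fluid protein, read 9.94 on pulsed 2 and 2.45 to 2.51 on all other arrays. The testis list (21 genes) had a median of 4.12 on pulsed 2, 2.47 to 2.55 on the other yolk-high arrays and 2.48 to 2.51 on yolk-low arrays. The digestive tract list (25 genes) had 4.49, 2.36 to 2.39 and 2.35 to 2.39 in the same order. With pulsed 2 the accessory gland list differed between the classes by a median of 0.64 log2 units, and without it by 0.01. Yp1 on the 4 other yolk-high arrays, whose medians for the accessory gland list overlapped those of yolk-low arrays, ran from 11.34 to 12.68. That list is of male tissues, and any part of body RNA in the yolk transcripts of these arrays was not tested. EbpII, an ejaculatory bulb protein, was at 11.34 on pulsed 2 and at 6.99 on pulsed 3, a yolk-low array, and at 2.48 to 2.52 on the rest. Cyp4g1, a P450 of the oenocytes and the fat body, read 11.67 on pulsed 2, 3.44 to 6.93 on the other yolk-high arrays and 5.77 to 7.70 on yolk-low arrays.

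**Figure D5:**
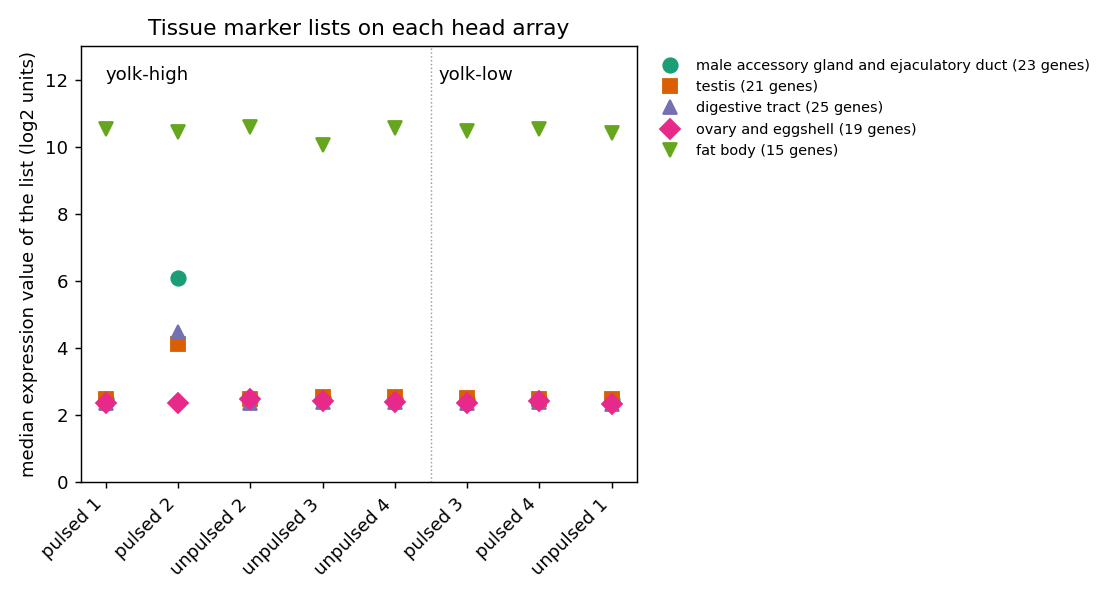
Median log2 value of the male accessory gland, testis, digestive tract, ovary and fat body lists (vertical axis) on each array, yolk-high arrays on the left and yolk-low arrays on the right. Each point is 1 array. Pulsed 2 lies above the other 7 arrays for the male tract and digestive tract lists, and no yolk-high array stands out for the ovary list.

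The light pulse was the contrast of the labels, and the rule for the split did not use it. With limma and Benjamini-Hochberg adjustment, 0 of 18769 probe sets (0%) differed between pulsed and unpulsed arrays at an adjusted p of 0.05, and 902 (4.81%) had an unadjusted p under 0.05. Yp1 averaged 8.58 ± 3.96 log2 units on pulsed arrays and 10.22 ± 3.65 on unpulsed arrays (SD, n = 4 each), a difference of -1.64 (SE 2.50, limma adjusted p = 1.00). Yp2 gave -1.43 (SE 2.35), Yp3 gave -1.23 (SE 1.51) and Obp99a gave -0.54 (SE 1.17), with limma adjusted p of 1.00 for each. In a fit with yolk class as a covariate, 0 probe sets passed the adjusted threshold, 1183 had an unadjusted p under 0.05, and the smallest adjusted p was 0.196.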

How the data were processed

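The file deposited by the authors gives log2 values by probe set for 8 arrays of total head RNA, labelled with biotin by an Affymetrix kit per the labels' protocols. That the scale is log2 was inferred from the range of values. Probe summary, background correction and normalization are not given in the sources used here, and the values were used as they are. Of 18952 probe sets, 183 control probe sets were left out. Names came from the platform annotation (13647 probe sets with 1 symbol, 402 with several, 4903 not listed), with 13544 updated by gene number through RefSeq (Release 6), used for names, chromosomes and gene order only. Each gene was represented by its 1-symbol probe set with the highest mean.

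A probe set followed the split when the classes did not overlap and their means differed by 1 log2 unit. Named were Yp1, Yp2 and Yp3, up to 15 genes per direction passing with and without pulsed 2 at a mean of at least 4, up to 4 separated members of each of 27 lists (323 genes measured of 408 written), and all measured sex-bias, sex determination and dosage compensation genes. Other genes named were chosen after their values were seen. Members, lists and tests were chosen with earlier results of these data known. The pulse contrast was fitted in R 4.3.3 with limma 3.58.1 (lmFit, eBayes, two-sided, Benjamini-Hochberg over all probe sets), tested on simulated data. No arrays held identical values: array pairs differed with an SD of at least 0.166. The number of arrays limits the precision.

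Alternatives were other scalings, a pseudocount of 16, a filter at the 40th percentile, folds of 1.5 and 4, the light pulse or yolk class in the fit, each treatment alone, a replicate block and each array left out. Some were added after seeing the data: no minimum size, the pulsed arm without pulsed 2, and the yolk covariate without pulsed 2.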

Additional observations from a re-analysis of the deposited data

Results flagged for a closer look

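In the groups of 4 pulsed and 4 unpulsed arrays, 52 groups of values from 26 named genes were examined for a highest or lowest array that stood far from the others, and 7 were so. Chance alone gives about 1 in 20 groups. The figure for each is the gap to the nearest array divided by the range of the group. Yp1 was lowest on unpulsed 1 among unpulsed arrays (4.82 log2 units, 0.8292 of the range), which is the yolk-low array of that group and restates the split. nSyb was highest on the same array (9.70, 0.869). It was named because its yolk-low arrays lay above its yolk-high arrays. That unpulsed 1 was its highest unpulsed array was therefore fixed by that choice, though the size of the gap was not. Obp99b was lowest on unpulsed 3 (14.85, 0.839), the array on which tobi, Lsp2 and DptB were also lowest. tra was lowest on pulsed 4 among pulsed arrays (6.70, 0.857) and lowest on unpulsed 4 among unpulsed arrays (6.66, 0.833). vir, a cofactor of Sxl, was highest on pulsed 4 (3.06, 0.879). mof was highest on pulsed 3 (4.41, 0.882).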

How the results depend on the processing

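Under all 18 alternatives examined, Yp1, Yp2, Yp3 and Obp99a were among the probe sets higher in yolk-high arrays. Much of this was fixed in advance. Taking fewer arrays cannot undo a lack of overlap, so there only the size of the difference could change. A lower fold cannot lose a call, and Yp1 made the split. Leaving out 1 array at a time gave 4 to 6 higher and 0 to 2 lower probe sets, and the 2 lower ones, without unpulsed 2, were up and tutl. With the light pulse as an additive term 1 was lower (PMCA), and at 1.5-fold 6 were higher and 1 lower (myd). Within the pulsed arrays 18 were higher and 3 lower, without pulsed replicate 2 as well 19 and 9, and within the unpulsed arrays 6 and 39. These arms hold fewer arrays. With no minimum size 193 were higher and 98 lower. Quantile normalization gave 5 higher, and median-centred arrays, a pseudocount of 16, the filter on dim probe sets and 4-fold gave 4, each with 0 lower. Of the differences of named genes over the split under the alternatives, 373 moved by less than the spread between arrays and 17 by more. The pseudocount of 16 gave 6.39 for Yp1 and 5.63 for Yp2.

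Between pulsed and unpulsed arrays limma gave 0 calls without any 1 array, and 1 call (CG10513) with median-centred arrays (adjusted p = 0.0215) and with dim probe sets left out (0.0408). The replicate block gave 0 calls, with 1011 unadjusted p under 0.05 against 902 without it. Same-numbered arrays deviated together by r of 0.01, -0.03, 0.02 and -0.17, and no pulsed array was best matched by its own number, so the numbers were not taken as pairs. With the yolk class as a covariate the pulse differences of Yp1 (0.11), Yp2 (0.21) and Obp99a (0.18) were positive in place of negative. That class was made from the Yp1 values, so these shifts follow from how the split was made and are no test of the pulse. Pulsed and yolk-low arrays are partly confounded, and a yolk-low class of 3 arrays limits every comparison.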

Other observations

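Some transcripts separated the yolk classes by more than 2-fold in 1 treatment arm alone. These genes were chosen after their values were seen, each arm has a single array on 1 side, and the difference between arms was not tested. In pulsed 1 against pulsed 3 and 4, the chemosensory protein genes CheA7a and CheA75a were higher by 2.33 and 2.11 log2 units, and Obp83b, an odorant-binding protein of the antenna, by 1.85. Their differences in unpulsed 2, 3 and 4 against unpulsed 1 were -0.03, 0.08 and 0.09. In the same pulsed arm Ebp gave -2.23 and EbpII -2.25, both ejaculatory bulb protein genes, where pulsed 3 held EbpII at 6.99. PMCA, a calcium pump, gave -1.86 in the pulsed arm and -0.86 in the unpulsed arm, and up, the troponin T of muscle, gave -1.44 and -0.63.

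Among the 39 probe sets lower in the unpulsed arm, where unpulsed 1 is the only yolk-low array, Sh, a potassium channel, was at -1.20, Rdl, a GABA receptor, at -1.10 and para, a sodium channel, at -1.01. These are single genes chosen after their values were seen. Rdl and para are also on the neuronal list described above, and no other group was counted or tested. The differences in the pulsed arm without pulsed 2 were -0.14 for Sh, -0.00 for Rdl and 0.12 for para. Some others of the 39 had the opposite sign in the pulsed arm. The acetylcholine receptor subunit genes nAChRalpha7 and nAChRbeta1 gave -1.17 and -1.09 in the unpulsed arm, and 0.66 and 0.59 in the pulsed arm. SK, also a potassium channel, gave -1.29 and 0.34. tutl, an immunoglobulin superfamily protein of neurons, gave -1.56 in the unpulsed arm and -0.73 in the pulsed arm. Cyp4g1 gave -2.13 in the unpulsed arm and 0.06 in the pulsed arm.

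Core clock genes (8 measured) and juvenile hormone genes (8 measured), the hormone being a regulator of yolk protein synthesis, gave 0 separated members each, at the background of 1.36% of all genes higher and 0.609% lower. Their median differences over the split were 0.03 (0.06 without pulsed 2) and -0.02 (0.02).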
